A study of Mus musculus with 16 samples.

Results

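Lungs that had received both bleomycin and an inhibitor of the microRNA miR-199a-5p were compared with lungs that had received neither, to ask what still set the injured, inhibitor-treated lung apart from the uninjured control lung. The comparison took the 5 arrays titled with bleomycin and LNA-miR-199a-5p (treated arrays 1 to 5 below) and the 3 arrays titled with PBS and LNA-control (control arrays 1 to 3), 8 of the 16 arrays of the series. The other 8 arrays, 5 from bleomycin lungs with LNA-control and 3 from PBS lungs given the inhibitor LNA-miR-199a-5p, entered the same model and are named only where their values stand beside a gene. All animals were C57BL/6 mice of 9 to 12 weeks, and RNA came from whole lung. Every animal had an oligonucleotide of locked nucleic acid (LNA) instilled into the trachea at 5 mg/kg, on days 4 and 2 before the challenge and on day 4 after it. The control lungs thus carried LNA-control and PBS, and the treated lungs LNA-miR-199a-5p and bleomycin at 1 unit/kg. The groups differ in the drug and in the oligonucleotide, so the part of each in a difference cannot be told apart from this contrast. The day of collection is not given in the sources used here, and nothing says that each array is a separate animal, so p-values measure the spread between these samples, which may be partly technical.

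MicroRNAs are short RNAs that lower the output of messenger RNAs to which their seed, bases 2 to 8, can pair. Mature miR-199a-5p comes from a pair of genes within introns or antisense transcripts of dynamin genes, and the microRNA is known in lung fibroblasts as a regulator of caveolin-1, the main protein of caveolae. An LNA inhibitor is a modified oligonucleotide that pairs with the mature microRNA and blocks it. Bleomycin breaks DNA, kills alveolar epithelium and is widely used in mice to bring on inflammation and then fibrosis. The sequence the inhibitor is named for, from RefSeq on GRCm38.p6, is printed with its seed in capitals.
mmu-miR-199a-5p: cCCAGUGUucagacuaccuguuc
It is 23 bases long and is encoded both by Mir199a-2, at chr1:162217844-162217866 on the plus strand, and by Mir199a-1, at chr9:21496537-21496559 on the minus strand. The mature microRNA itself was not measured on these arrays.

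Values are log2 intensities, so a difference of 1 is a factor of 2, and differences are given as treated minus control with the standard error of the fit. Markers of the lung's own cells were present in both groups. The surfactant gene Sftpb was 16.25, 16.60 and 16.71 on the control arrays and 16.03 to 16.71 on the treated arrays, and the airway gene Scgb1a1 was 18.09 to 18.15 against 18.10 to 18.32. Other probes of these genes, 1 for Sftpb and 6 for Scgb1a1, had differences of the other sign. Ager of type 1 cells (difference 0.44 ± 0.15, adjusted p = 0.0529), Pecam1 of endothelium (0.36 ± 0.14, adjusted p = 0.0984) and Foxj1 of ciliated cells (0.04 ± 0.12, adjusted p = 0.854) did not pass the threshold. Ager was called in 7 of 23 alternatives, such as without treated array 1 or 2 (adjusted p = 0.03 and 0.046), and Pecam1 without treated array 1 (0.039). Sftpc sat at the top value of the normalized arrays, 18.32, on all 3 control arrays, so the arrays cannot show a rise of it. RNA integrity numbers were 8 to 9 in the control group and 8 to 10 in the treated group. In whole lung, more cells of a type and more RNA per cell cannot be told apart.

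Of 20863 genes, 3037 differed between treated and control lungs at an adjusted p under 0.05, which is 14.6% of genes. The higher calls numbered 1751 (8.39%) and the lower calls 1286 (6.16%). Most were small: the median size among called genes was 0.46, 2081 were under 1.5-fold, and 259 reached 2-fold, 195 of them higher and 64 lower. The 5 treated and 3 control arrays did not overlap for 5378 genes (25.8%). In the same fit, 17.5% of genes were called for bleomycin with LNA-control against PBS with LNA-control, 24.9% for the treated lungs against bleomycin with LNA-control, and 13.4% for the treated lungs against PBS with LNA-miR-199a-5p. The inhibitor contrast within PBS lungs had 0.0479%. Those comparisons share arrays with this one. Centring each array on its median gene turned the split to 1024 higher and 2210 lower calls, since the median gene was 0.08 higher in the treated group. Higher calls were 57.7% of calls, beside 31.7% after centring, 41.1% after a repeated quantile normalization and 43.8% over all probes, and 49.1% with fat and heart genes as covariates or 47.4% without control array 3. The count also fell to 618 without control array 3, to 1521 without control array 2 and to 1677 without control array 1. Transcripts of fat, skeletal muscle and squamous epithelium were lowest on control array 3 and are described further on. With the levels of fat and heart muscle genes as covariates 232 genes were called, with those of skeletal muscle genes 851, and with those of squamous genes 1276. Fat genes averaged 8.92 to 10.22 on control arrays and 10.71 to 11.02 on treated arrays. Skeletal muscle genes averaged 8.74 to 9.76 against 10.56 to 11.38, and squamous genes 8.39 to 9.66 against 10.22 to 10.85. The fat, skeletal muscle and squamous covariates thus do not overlap between the groups.

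**Figure D1:**
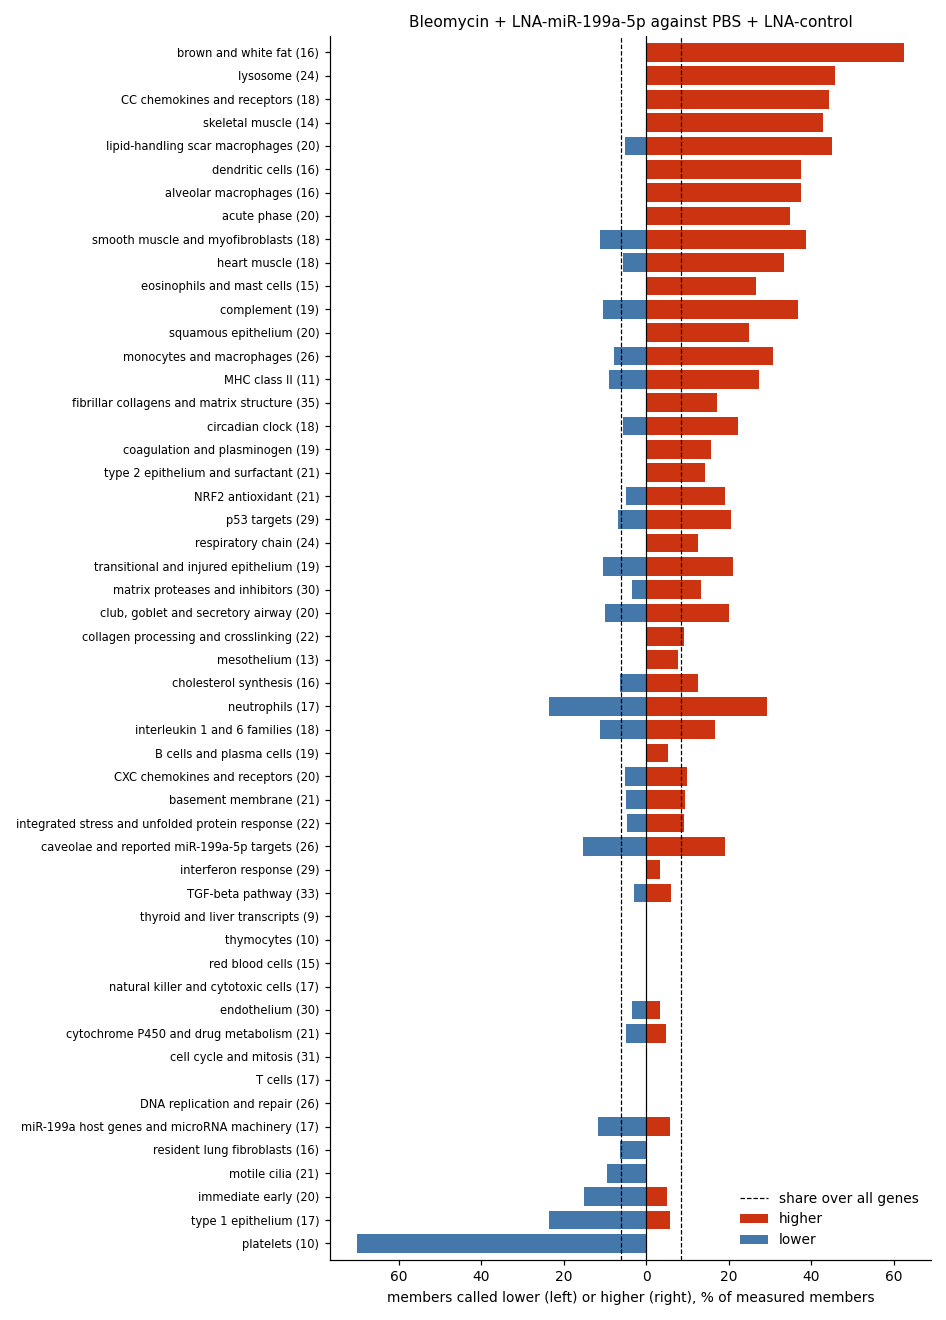
Share of the measured members of each of 52 gene lists (number in brackets) called higher (right, red) or lower (left, blue) in lungs given bleomycin and LNA-miR-199a-5p than in lungs given PBS and LNA-control, in percent. Dashed lines mark 8.39% higher and 6.16% lower over all genes, and the fat list (10 of 16 higher) and the platelet list (7 of 10 lower) lie at the ends.

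Macrophage genes remained above the control lung. Among 20 genes of the lipid-handling macrophages found in lung scars, 9 were higher (45.0%, beside 8.39% over all genes) and 1 was lower, with a median difference of 0.34 against 0.03 over all genes. Without control array 3, when 618 genes were called in all, 5 of the 20 were higher and none was lower. Trem2, a lipid-sensing receptor of these cells, was 9.61, 9.60 and 9.39 on the control arrays and 10.52, 10.62, 10.54, 10.76 and 11.00 on the treated arrays. Every treated array lay above every control array, and the difference was 1.16 ± 0.10 (2.23-fold, adjusted p = 1.5e-05). Gpnmb, a membrane glycoprotein of the same cells, went from 8.95, 8.88 and 8.81 to between 9.87 and 10.30 (1.15 ± 0.11, adjusted p = 2.73e-05). Ctsk, a collagen-cutting cathepsin, was 11.55, 11.43 and 11.30 in control lungs and 12.07 to 12.28 in treated lungs (0.76 ± 0.11, adjusted p = 0.000907). Each of these 3 genes stayed called under all alternatives tried. Spp1, which encodes osteopontin and is a hallmark of these macrophages, did not pass: it was 10.02, 10.32 and 10.40 in control lungs and 10.57, 10.82, 10.53, 10.41 and 10.33 in treated lungs, and the groups overlapped (0.29 ± 0.22, adjusted p = 0.399). In bleomycin lungs with LNA-control the same fit gave 3.78 for Spp1, 3.47 for Trem2 and 2.93 for Gpnmb above the shared control arrays. Apoe, the lipid carrier, was 0.67 ± 0.10 higher in treated than in control lungs (adjusted p = 0.00112). The fatty acid carrier Fabp4 (1.5 ± 0.43) is on the list for fat as well, and the scavenger receptor Cd36 was the member that fell, by 0.46 on the log2 scale. Both were named after their values were seen. Without control array 3 their adjusted p were 0.17 and 0.079, and without control array 2 that of Fabp4 was 0.081.

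**Figure D2:**
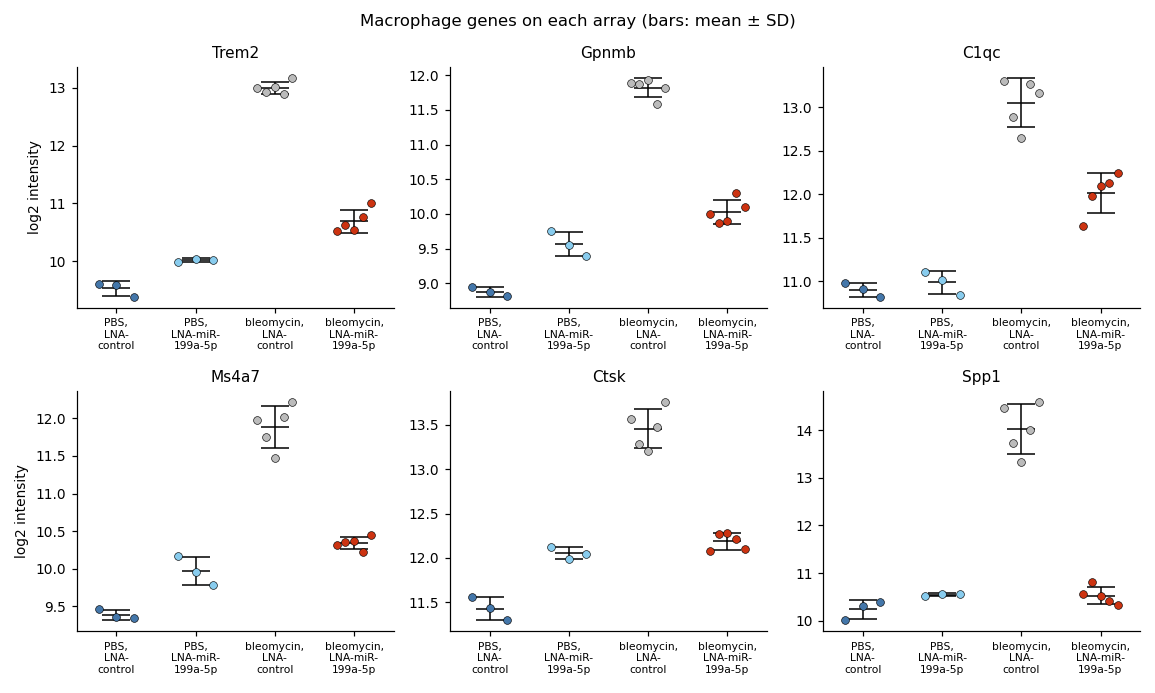
Log2 intensity of 6 macrophage genes on each of the 16 arrays in the 4 groups, 1 point per array, with bars for mean ± SD. Trem2, Gpnmb, C1qc, Ms4a7 and Ctsk lie higher on every array of bleomycin with LNA-miR-199a-5p than on the 3 arrays of PBS with LNA-control, whereas Spp1 overlaps between these groups.

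Of 26 general monocyte and macrophage genes, 8 were higher and 2 lower (38.5% called, beside 14.6% over all genes), with a median of 0.30. There were 4 higher and no lower calls without control array 3. Among the higher were the 3 chains of C1q, the complement starter that tissue macrophages make. C1qc was 10.98, 10.90 and 10.82 in control lungs and 11.64, 11.97, 12.09, 12.13 and 12.25 in treated lungs (1.11 ± 0.15, adjusted p = 0.000579). C1qa (1.00 ± 0.17, adjusted p = 0.00248) and C1qb (1.03 ± 0.17, adjusted p = 0.00182) differed by similar amounts. With fat and heart genes as covariates C1qb kept its difference, at 1.03, with an adjusted p of 0.0548. Ms4a7, a membrane protein of resident-type macrophages, was 9.34 to 9.47 against 10.23 to 10.45 (0.96 ± 0.13, adjusted p = 0.000662). The integrin chain Itgam, a myeloid adhesion receptor named here after its values were seen, went the other way, from 14.07, 14.17 and 14.31 to between 12.78 and 13.84 (-0.82 ± 0.25, adjusted p = 0.0361). That call was lost without any 1 control array (adjusted p 0.074 to 0.15) and without treated array 2 or 5 (0.066 and 0.08), and 1 of its other probes went the other way. The mean of its probes gave -0.24 (adjusted p = 0.125).

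Among 16 genes of alveolar macrophages, the resident phagocytes of the air spaces, 6 were higher and none was lower (median 0.29). The share called was 37.5%, beside 14.6% over all genes. There were 2 higher calls without control array 3, and 3 in the fit of the 8 arrays alone. Pparg, the transcription factor these cells need, was 10.59, 10.51 and 10.39 in control lungs and 10.94 to 11.36 in treated lungs (0.65 ± 0.10, adjusted p = 0.00109). Cidec, a lipid-droplet protein, rose from 11.04 to 11.51 to between 12.24 and 12.71 (1.10 ± 0.18, adjusted p = 0.00217). Both genes are also active in fat. With fat and heart genes as covariates Pparg was 0.36 and Cidec 0.62, and neither was called (adjusted p = 0.154 and 0.103). The scavenger receptor Marco (0.78 ± 0.20, adjusted p = 0.0173) and the integrin chain Itgax (0.44 ± 0.12, adjusted p = 0.0209) completed the 4 smallest p-values of the list. Without control array 3 their adjusted p were 0.12 and 0.10, and without control array 2 they were 0.055 for each. Itgax had 0.056 without control array 1.

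Lysosomal genes were higher in small steps. Of 24, 11 were called higher (45.8%, beside 8.39% over all genes) and none lower (median 0.25). Ctsz and Atp6v0d1 were the 2 calls left without control array 3. The cathepsin Ctsz was 13.23, 13.17 and 13.03 in control lungs and 13.43 to 13.97 in treated lungs (0.55 ± 0.11, adjusted p = 0.00566). Atp6v0d1, a subunit of the pump that acidifies lysosomes, was 12.06 to 12.19 against 12.36 to 12.79 (0.44 ± 0.09, adjusted p = 0.00638). The protease Ctsd (0.48 ± 0.11) and the membrane protein Lamp1 (0.30 ± 0.07) were also called, with adjusted p of 0.00946 and 0.0127, but without control array 3 these became 0.072 and 0.093. Of 19 complement genes, 7 were higher and 2 lower (47.4% called, beside 14.6% over all genes, median 0.29). There were 5 and none without control array 3. Besides C1q, the list held Cfd, a protease of the alternative pathway that fat cells secrete, at 15.11, 14.80 and 14.23 against 15.69 to 16.06 (1.18 ± 0.22, adjusted p = 0.00434).

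Some antigen presentation genes were moderately higher. Of 16 dendritic cell genes, 6 were higher and none lower (37.5% called, median 0.34). Of 11 MHC class II genes, 3 were higher and 1 was lower (36.4% called, beside 14.6% over all genes, median 0.31). There was 1 dendritic cell call and no class II call without control array 3. The class II list mean overlapped, at 11.41, 11.48 and 11.35 on control arrays and 11.40, 11.61, 11.85, 11.34 and 11.80 on treated arrays. Without treated arrays 2 and 3 the class II median was 0.11. Cd209a, a lectin of monocyte-derived dendritic cells, was 9.62, 9.71 and 9.55 in control lungs and 10.06 to 10.33 in treated lungs (0.55 ± 0.09, adjusted p = 0.00182) and stayed called under every alternative tried, with 0.36 as the mean of its probes. Batf3, a transcription factor of cross-presenting dendritic cells, was 8.61 to 8.69 against 8.90 to 9.73 (0.69 ± 0.16, adjusted p = 0.0114). Fscn1, the actin bundler of mature dendritic cells, was 7.31 to 7.45 against 7.70 to 8.74 (0.87 ± 0.20, adjusted p = 0.0124). The class II genes H2-Ab1 (0.50 ± 0.11) and H2-Eb1 (0.45 ± 0.12) and the invariant chain Cd74 (0.54 ± 0.14) were higher, whereas Ciita, the activator that switches class II genes on, was lower (-0.51 ± 0.15, adjusted p = 0.0364). Without control array 3 the adjusted p of Batf3, Fscn1, H2-Ab1, H2-Eb1, Cd74 and Ciita lay between 0.066 and 0.11. Cd74 also missed the threshold without control array 1 or 2 (0.069 and 0.059), H2-Eb1 without control array 1 (0.067), and Ciita without control array 1 or 2 or treated array 2, 4 or 5 (0.065 to 0.13).

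Acute-phase genes were higher, led by the largest rise among the genes named by size. Saa3, a serum amyloid made locally in inflamed lung, was 8.26, 7.94 and 7.59 on control arrays and 9.82, 11.40, 12.06, 9.78 and 10.17 on treated arrays. The groups did not overlap and the difference was 2.72 ± 0.54 (6.58-fold, adjusted p = 0.00547). Treated arrays 2 and 3 held the highest values, and the other 3 lay close together. Lcn2, an iron-trapping protein of neutrophils and stressed epithelium, was 13.23 to 13.37 against 13.76, 14.42, 15.11, 14.18 and 14.62 (1.13 ± 0.20, adjusted p = 0.00325). Orm1, a plasma orosomucoid, was 6.49 to 6.88 against 7.74 to 7.93 (1.10 ± 0.21, adjusted p = 0.00491). In all, 7 of 20 acute-phase genes were higher and none was lower (35.0% called, beside 14.6% over all genes, median 0.35). There were 3 higher calls without control array 3. Bleomycin lungs with LNA-control had Saa3 at a mean of 10.76 ± 1.02 (SD, n = 5), and the treated lungs at 10.64 ± 1.03 (SD, n = 5).

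Of 18 genes for CC chemokines, the attractants of monocytes and lymphocytes, and their receptors, 8 were higher and none was lower (median 0.38). That is 44.4% called, beside 14.6% over all genes, and in the fit of the 8 arrays alone 5 were higher. Ccl6 and Ccl12 were the 2 calls left without control array 3. Ccl6, which myeloid cells make, was 14.17, 14.27 and 14.18 in control lungs and 14.96, 15.04, 15.13, 15.30 and 15.26 in treated lungs (0.93 ± 0.09, adjusted p = 3.02e-05). Its treated arrays lay close together. Ccl12, a monocyte attractant, was 6.84 to 6.92 against 7.56, 8.18, 8.40, 7.81 and 7.93 (1.10 ± 0.23, adjusted p = 0.00704). Ccl8 (1.34 ± 0.29, adjusted p = 0.00907), Ccl7 (1.41 ± 0.39, adjusted p = 0.026) and Ccl2 (1.22 ± 0.38, adjusted p = 0.0412), which act on monocytes too, rested more on 2 arrays. Ccl7 was 8.80 and 9.46 on treated arrays 2 and 3 and 7.30 to 7.76 on the others, above control values of 6.60 to 6.88. Ccl2 was 10.03 and 10.52 on these arrays and 8.76 to 8.97 on the others, above 8.14 to 8.28 in the control lungs. Without control array 3 the adjusted p of Ccl8, Ccl7 and Ccl2 were 0.071, 0.12 and 0.14. Ccl7 and Ccl2 also missed the threshold without control array 1 or 2 (0.062 to 0.11), and Ccl2 without treated array 2 or 3 (0.077 and 0.069). Without treated arrays 2 and 3 together the estimates were 0.77 for Ccl7 and 0.65 for Ccl2, and neither was called.

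**Figure D3:**
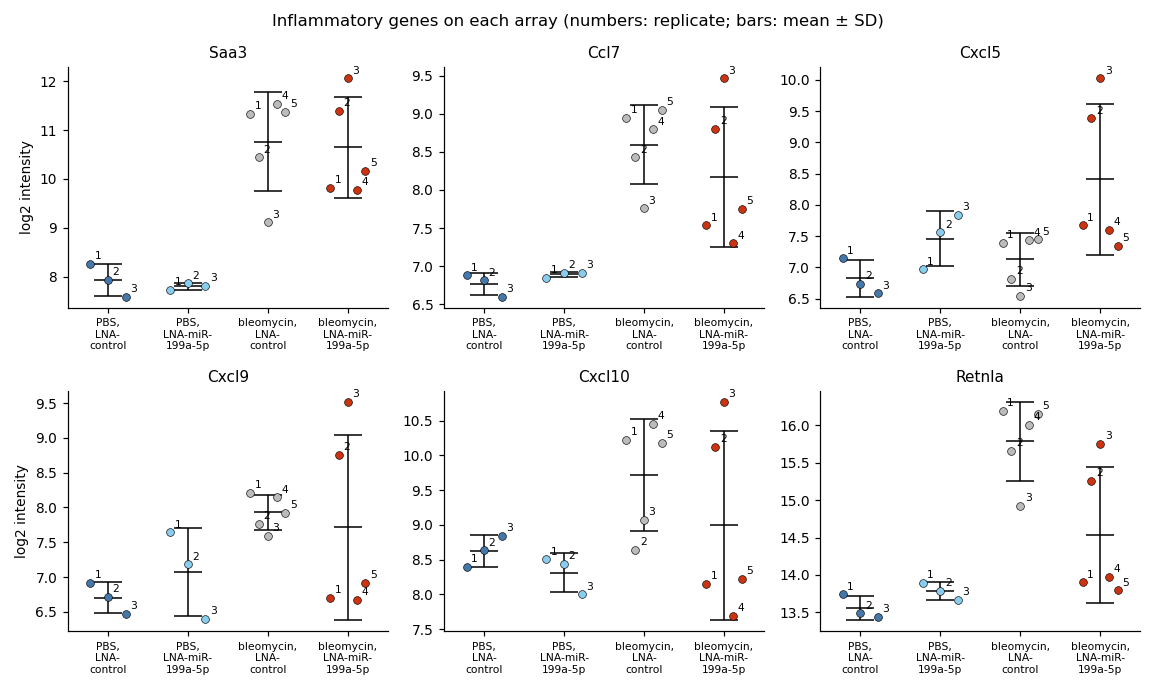
Log2 intensity of 6 inflammatory genes on each array in the 4 groups, with the replicate number beside each point and bars for mean ± SD. In bleomycin lungs with LNA-miR-199a-5p, arrays 2 and 3 lie above arrays 1, 4 and 5 for each gene, and for Cxcl9 and Cxcl10 the other 3 arrays overlap or lie below the control arrays.

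The treated group was split for the neutrophil and T cell attractants. Cxcl5, which epithelium makes to draw neutrophils, was 9.39 and 10.02 on treated arrays 2 and 3, 7.35 to 7.68 on the others and 6.58 to 7.15 in control lungs (1.58 ± 0.49, adjusted p = 0.0404). It missed the threshold without any 1 control array (adjusted p 0.072 to 0.16) or without treated array 2 or 3 (0.076 and 0.058). Cxcl9, an attractant of T cells induced by interferon, was 8.76 and 9.52 on the same arrays, 6.67 to 6.92 on the other treated arrays and 6.47 to 6.92 in control lungs, and the groups overlapped (1.01 ± 0.53, adjusted p = 0.208). Cxcl10, its relative, was 10.12 and 10.77 on these arrays and 7.69 to 8.23 on the other treated arrays, below the control arrays at 8.39, 8.64 and 8.85 (0.37 ± 0.59, adjusted p = 0.716). Retnla, a secreted protein of the type 2 response, was 15.26 and 15.75 against 13.80 to 13.97 within the treated group and 13.45 to 13.74 in control lungs (adjusted p = 0.0989). The same arrays held Ttr, the thyroid hormone carrier of liver and choroid plexus, at 9.02 and 9.87, where the other 6 of the 8 arrays had 5.17 to 5.45. Cxcl9, Cxcl10, Ccl2, Ccl7, Retnla and Ttr were picked after their values were seen, and the labels do not set these 2 arrays apart from the other treated arrays.

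Interferon response genes were near the control level as a group. Of 29 such genes, only Oas3, a sensor of double-stranded RNA, was called (3.45%, beside 14.6% over all genes). The list median was -0.01. Oas3 was 6.32, 6.29 and 5.98 in control lungs and 6.34, 6.60, 6.94, 6.54 and 7.12 in treated lungs (0.51 ± 0.14, adjusted p = 0.0249). It missed the threshold without control array 2 (0.054) or 3 (0.15). Isg15, a ubiquitin-like protein of this response, was 12.04 to 12.54 in control lungs and 11.64, 12.21, 12.67, 11.85 and 12.09 in treated lungs (adjusted p = 0.394), with array 3 highest, and array 2 next. The mean of the list was 9.75, 10.09, 10.33, 9.70 and 9.88 on treated arrays 1 to 5 and 10.02, 9.98 and 9.87 on control arrays. Without treated arrays 2 and 3 the list median was -0.20, with 4 genes called lower and none higher. Genes of this response are known to be switched on through a short promoter element, and the 3 promoters shown are those of Isg15, Cxcl10 and Oas3, whose values differ in the way just described. Each runs from 250 bases before to 50 after the gene's start, 5′ to 3′ on the gene's strand (RefSeq, GRCm38.p6), with matches to the core TTTCNNTTT on either strand in capitals.
Isg15, chr4:156200769-156201068, minus strand: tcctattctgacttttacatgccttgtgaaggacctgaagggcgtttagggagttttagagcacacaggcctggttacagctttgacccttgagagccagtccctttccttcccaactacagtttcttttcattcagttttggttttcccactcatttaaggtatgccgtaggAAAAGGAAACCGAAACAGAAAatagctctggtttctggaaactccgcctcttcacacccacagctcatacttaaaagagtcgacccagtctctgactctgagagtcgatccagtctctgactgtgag
Cxcl10, chr5:92348840-92349139, minus strand: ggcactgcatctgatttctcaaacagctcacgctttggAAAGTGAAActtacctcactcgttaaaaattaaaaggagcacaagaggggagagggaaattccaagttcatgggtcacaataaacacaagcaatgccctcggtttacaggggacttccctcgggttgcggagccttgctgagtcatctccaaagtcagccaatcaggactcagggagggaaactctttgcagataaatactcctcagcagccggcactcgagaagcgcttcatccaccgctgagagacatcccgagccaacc
Oas3, chr5:120777610-120777909, minus strand: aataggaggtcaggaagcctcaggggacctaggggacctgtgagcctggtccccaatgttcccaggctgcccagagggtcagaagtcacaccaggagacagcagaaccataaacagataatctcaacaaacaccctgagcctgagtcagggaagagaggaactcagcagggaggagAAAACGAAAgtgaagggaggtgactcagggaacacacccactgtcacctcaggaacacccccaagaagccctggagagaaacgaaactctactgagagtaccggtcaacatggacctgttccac
The core was found 3 times in the window of Isg15, with overlapping matches, and once in each of the others. It was present in 18 of 21 interferon genes with a promoter in the table and in 10.6% of all 32851 promoter windows of that length. A match is a match of letters only.

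Neutrophil genes moved both ways, with 5 of 17 higher, 4 lower (52.9% called, beside 14.6% over all genes) and a median of 0.05. There were 3 higher calls and 1 lower call without control array 3. Cxcr1, a receptor for neutrophil attractants, was 7.03, 6.95 and 6.47 in control lungs and 8.09 to 8.40 in treated lungs (1.42 ± 0.13, adjusted p = 1.5e-05). It was also higher by 1.15 in bleomycin lungs with LNA-control (adjusted p = 1.3e-05). The decoy receptor for interleukin 1, Il1r2, was 6.82 to 7.53 against 7.99 to 8.59 (1.07 ± 0.22, adjusted p = 0.00684). Cxcr2, the better known receptor of this pair, was lower (-0.40 ± 0.12, adjusted p = 0.0285), as were the growth factor receptor Csf3r (-0.54 ± 0.13) and the amplifying receptor Trem1 (-0.62 ± 0.17), both named after their values were seen. Once control array 3 was left out, none of Il1r2, Cxcr2, Csf3r and Trem1 passed (adjusted p 0.061 to 0.14), and without control array 1 neither did Cxcr2, Csf3r and Trem1 (0.053 to 0.12). Cxcr2 also missed the threshold without control array 2 or treated array 2 or 4 (0.054 to 0.064). Il1b, the cytokine, was 13.06, 10.60 and 10.24 on control arrays and 9.25 to 10.24 on treated arrays (-1.50 ± 0.45, adjusted p = 0.0354) by the probe kept for the gene. The other 9 Il1b probes had differences of -0.62 to -0.76, and the mean of all its probes gave -0.77 (adjusted p = 0.0300). On the kept probe control array 1 stood far above the others, and without it the difference was -0.62 and was not called (adjusted p = 0.14). Without treated array 1, 2 or 4 its adjusted p lay between 0.051 and 0.075.

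A separate set of genes was lowest in the treated lungs and low in both groups given LNA-miR-199a-5p. Ddx6, an RNA helicase of the machinery that silences microRNA targets, was 11.64, 11.84 and 12.15 on control arrays and 10.46, 10.28, 10.08, 10.06 and 10.07 on treated arrays (-1.69 ± 0.12, 3.22-fold lower, adjusted p = 2.67e-06). Its mean was 10.97 ± 0.09 (SD, n = 3) in PBS lungs with LNA-miR-199a-5p and 11.84 ± 0.14 (SD, n = 5) in bleomycin lungs with LNA-control. Thus both groups with the inhibitor lay below both groups with LNA-control. Tut4, an enzyme that adds uridines to RNA tails and to some microRNA precursors, was 10.71, 10.97 and 11.54 on control arrays and 8.78 to 9.62 on treated arrays (-1.91 ± 0.20, 3.77-fold lower, adjusted p = 6.36e-05). The fall was as large for Cyyr1, a small membrane protein, at 11.28, 11.45 and 12.07 against 9.56 to 10.01 (-1.90 ± 0.14, adjusted p = 2.67e-06). Lrrc8b, a subunit of volume-regulated anion channels, was 9.57, 9.81 and 10.15 against 7.83 to 8.72 (-1.46 ± 0.19, adjusted p = 0.000579), and the transport ATPase Atp13a3, picked after its values were seen, was 9.20, 9.36 and 9.66 against 7.79 to 8.35 (-1.26 ± 0.12, adjusted p = 3.48e-05). All 5 stayed called under every alternative tried. The other probe of Tut4 gave -0.38, and the mean of both gave -1.15 (adjusted p = 0.00071). In PBS lungs the inhibitor contrast alone, which shares the control arrays, gave -0.90 for Ddx6 (adjusted p = 0.0289), -1.28 for Cyyr1 (0.00356), -0.85 for Atp13a3 (0.0368), -1.20 for Tut4 (0.0754) and -1.08 for Lrrc8b (0.102). In bleomycin lungs with LNA-control the differences from the control lungs were -0.04 for Ddx6, -0.06 for Atp13a3, 0.01 for Lrrc8b, -0.37 for Tut4 and -0.75 for Cyyr1, and of these only Cyyr1 was called (adjusted p = 0.0012).

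**Figure D4:**
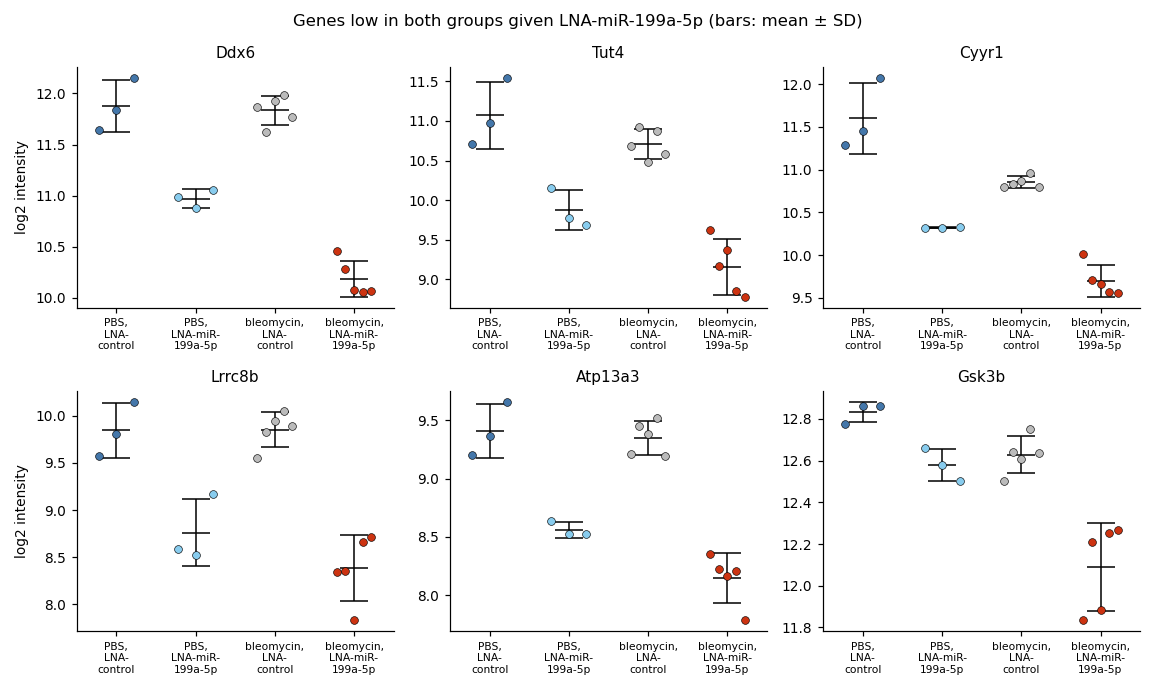
Log2 intensity of 6 genes on each array in the 4 groups, 1 point per array, with bars for mean ± SD. For Ddx6, Tut4, Cyyr1, Lrrc8b and Atp13a3 every array of bleomycin with LNA-miR-199a-5p lies below every array of both groups with LNA-control.

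Other large falls carried gene names of mixed kinds. St6galnac1, a sialyltransferase of secretory epithelium, was 12.21, 12.46 and 12.99 in control lungs and 10.57 to 11.94 in treated lungs (-1.37 ± 0.30, adjusted p = 0.00867). Slfn9, of the Schlafen family, was 10.77 to 11.02 against 8.87 to 10.29 (-1.32 ± 0.26, adjusted p = 0.00547). Gfra4, a receptor for the family of glial cell line-derived neurotrophic factor, was 11.80 to 12.21 against 10.23 to 11.41 (-1.32 ± 0.29, adjusted p = 0.00977). However, 1 of its other probes went the other way. The mean of probes gave -0.41 for Gfra4 and -0.73 for St6galnac1. With control array 3 set aside, St6galnac1 and Gfra4 missed the threshold (adjusted p = 0.072 and 0.066). The other 5 of the 12 largest falls were Map6d1 and 4 predicted gene models.

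Matrix genes are the textbook readout of fibrosis. Among 35 collagen and other structural matrix genes, 6 were higher (17.1%, beside 8.39% over all genes) and none was lower, and the median difference was 0.20 beside 0.03 over all genes. Mfap5 was the 1 call left without control array 3. In bleomycin lungs with LNA-control, 25 of these 35 were called higher against the same control arrays and the median was 0.83. Col1a1, the main chain of type I collagen, was 13.22, 13.28 and 13.28 in control lungs and 13.25, 13.50, 13.35, 13.09 and 13.64 in treated lungs, with overlap (0.11 ± 0.16, adjusted p = 0.704). Col3a1 was 13.89 to 14.21 against 14.11 to 14.40 (0.19 ± 0.15, adjusted p = 0.418). Fibronectin, Fn1, was 14.12 to 14.28 against 14.26 to 14.56 (0.27 ± 0.17, adjusted p = 0.309). A p above the threshold does not show that these genes were back at the control level.

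Among the matrix genes that did differ were accessory proteins and a collagen chain. Mfap5, a microfibril component, was 12.92, 12.81 and 12.77 in control lungs and 13.17 to 13.45 in treated lungs (0.48 ± 0.10, adjusted p = 0.00635). Thbs2, a matricellular thrombospondin, was 5.69 to 5.91 against 6.26 to 6.57 (0.66 ± 0.16, adjusted p = 0.0167). Fbln2, a fibulin, was 9.90 to 10.03 against 10.27 to 10.79 (0.56 ± 0.15, adjusted p = 0.0197), and Col6a1, a chain of beaded-filament collagen, was 13.44 to 13.54 against 13.67 to 14.55 (0.50 ± 0.15, adjusted p = 0.0352). Thbs2, Fbln2 and Col6a1 missed the threshold without control array 2 or 3 (adjusted p 0.053 to 0.13), Fbln2 and Col6a1 without control array 1 (0.051 and 0.1), and Col6a1 without treated array 4 (0.068). Among 21 basement membrane genes, 2 were higher and 1 was lower (14.3% called, beside 14.6% over all genes). The lower gene was Col4a5, a chain of the alveolar and glomerular network, at 11.27, 11.24 and 11.23 against 10.66 to 10.91 (-0.45 ± 0.07, adjusted p = 0.00182). Bleomycin with LNA-control placed this gene on the other side, 0.42 above the control lungs (adjusted p = 0.00077).

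Of 22 genes for collagen processing and crosslinking, 2 were higher and none was lower (9.09%, beside 14.6% over all genes). There was no call without control array 3. Of 30 matrix proteases and inhibitors, 4 were higher and 1 was lower (16.7% called, beside 14.6% over all genes). There was 1 higher call without control array 3. Plaur, the urokinase receptor, was 11.23, 11.52 and 11.50 in control lungs and 11.73 to 12.26 in treated lungs (0.53 ± 0.11, adjusted p = 0.00722). The gelatinase Mmp2 was 9.92 to 10.28 against 10.35 to 11.24 (0.65 ± 0.17, adjusted p = 0.0218), but without control array 2 or 3 its adjusted p was 0.065 or 0.12. Timp1, the protease inhibitor that marks active fibrosis, was 9.81 to 9.97 in control lungs and 10.13, 11.17, 11.45, 10.32 and 10.51 in treated lungs, highest again on arrays 2 and 3 (0.81 ± 0.34, adjusted p = 0.116). The groups did not overlap for Timp1.

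In the TGF-beta pathway, the main profibrotic signal of the lung, 2 of 33 genes were higher and 1 was lower. That is 9.09% called, beside 14.6% over all genes. The median was 0.02, beside 0.03 over all genes. Only Tgfb2 was called without control array 3. Among the ligands, Tgfb1 was 9.90, 9.94 and 9.99 in control lungs and 10.00, 10.08, 10.43, 10.91 and 11.43 in treated lungs (0.63 ± 0.24, adjusted p = 0.0942). Without treated array 1 it was called at 0.77 (adjusted p = 0.034). Tgfb2 was lower, at 11.46, 11.59 and 11.59 against 10.88 to 11.29 (-0.48 ± 0.09, adjusted p = 0.0038), with -0.31 as the mean of its probes. Smurf1, a ligase that removes receptors, and Pmepa1, a feedback inhibitor that the pathway induces, were called at 0.57 ± 0.16 (adjusted p = 0.0309) and 0.35 ± 0.11 (adjusted p = 0.0453). After leaving out control array 3 their adjusted p were 0.17 and 0.25, without control array 1 0.074 and 0.058, and without treated array 5 0.068 and 0.096. Smurf1 also missed the threshold without treated array 4 (0.066), and Pmepa1 without control array 2 or treated array 2 or 3 (0.07 to 0.077).

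Contractile genes of smooth muscle and myofibroblasts were higher for 7 of 18 members and lower for 2 (median 0.20). There was 1 call in each direction without control array 3. Acta2, the actin of smooth muscle and myofibroblasts, was 13.87, 13.87 and 13.79 in control lungs and 14.25, 14.26, 14.30, 14.93 and 15.01 in treated lungs (0.70 ± 0.16, adjusted p = 0.0121). Treated arrays 4 and 5 were highest. In bleomycin lungs with LNA-control the same gene was 0.09 above the control lungs (adjusted p = 0.78). Actg2, the enteric smooth muscle actin, was 10.97 to 11.21 against 11.61 to 12.03 (0.65 ± 0.11, adjusted p = 0.00252). Des, which encodes desmin (0.97 ± 0.20, adjusted p = 0.00621), and Tpm2, a tropomyosin (0.76 ± 0.16, adjusted p = 0.00724), are active in skeletal muscle too, whose genes were higher on the same arrays. With skeletal muscle genes as a covariate Acta2 was 0.55, Des 0.70 and Tpm2 0.37, and none was called (adjusted p = 0.106, 0.0726 and 0.0512). The mean level of skeletal muscle genes did not overlap between the groups. Once control array 3 was left out, the adjusted p of Acta2, Des and Tpm2 were 0.07, 0.055 and 0.056. Hhip, a hedgehog-binding protein of lung mesenchyme, was lower (-0.59 ± 0.10, adjusted p = 0.00287), with 10.67, 10.70 and 10.91 in control lungs and 9.90 to 10.42 in treated lungs, and -0.34 as the mean of its probes.

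The p53 response, which DNA breaks set off, was higher for 6 of 29 genes and lower for 2, with a median of 0.04. That is 27.6% called, beside 14.6% over all genes. There were 4 higher calls and 1 lower call without control array 3. Gdf15, a secreted stress cytokine, was 8.03, 7.92 and 7.99 in control lungs and 8.78, 9.01, 8.77, 8.98 and 9.07 in treated lungs (0.94 ± 0.12, adjusted p = 0.000537). It stayed called under every alternative tried. Cdkn1a, the p21 brake on the cell cycle, was 10.37, 10.38 and 10.35 against 11.17, 11.36, 11.20, 12.03 and 11.67 (1.12 ± 0.22, adjusted p = 0.00477). Plk3 (0.64 ± 0.10, adjusted p = 0.00182), a stress kinase, and Phlda3 (0.55 ± 0.10, adjusted p = 0.00248), an inhibitor of Akt, rose too. Plk2, a kinase (-0.66 ± 0.13, adjusted p = 0.00479), and Rrm2b, a ribonucleotide reductase subunit (-0.75 ± 0.20, adjusted p = 0.0205), fell, and both were named after their values were seen. Without control array 1 or 3 the adjusted p of Rrm2b was 0.061 or 0.1, and the mean of its probes gave -0.48. In bleomycin lungs with LNA-control, 15 of the 29 were called higher, with Gdf15 at 2.86 and Cdkn1a at 1.89 above the shared control arrays. In PBS lungs with LNA-miR-199a-5p, 1 of the 29 was called higher against these arrays (list median 0.14). The list mean was 9.98 to 10.03 in that uninjured group, 9.99 to 10.02 in treated lungs and 9.84 to 9.88 in control lungs.

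Cell cycle genes depended on the arrays fitted. None of 31 was called by limma in the fit of all 16 arrays, with a median of 0.38, whereas 8 were higher and 1 was lower in the fit of the 8 arrays compared. Plk1, a mitotic kinase, came close: it was 8.22, 8.31 and 8.07 in control lungs and 8.70 to 9.15 in treated lungs, without overlap (0.71 ± 0.24, adjusted p = 0.0552). It was called without treated array 1 (adjusted p = 0.049). Ccne1, cyclin E1, was 7.53 to 7.78 against 8.08 to 8.58 (0.58 ± 0.20, adjusted p = 0.06). Cdc20, which starts anaphase, was 9.15 to 9.66 against 9.75 to 10.41 (0.68 ± 0.27, adjusted p = 0.102). For bleomycin with LNA-control 28 of the 31 were called higher, with a median of 1.52, and the spread of that group entered the shared error of the fit. In the fit of the 8 arrays Plk1, Ccne1 and Cdc20 all passed, with adjusted p of 0.00684, 0.0130 and 0.0211. None of 26 DNA replication and repair genes was called either (median 0.01). At an unadjusted limma p under 0.05 there were 6 of the 31 cell cycle genes and 2 of the 26 replication genes, beside 6299 of all 20863 genes.

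Metallothioneins, which bind metals and take up oxidants, were higher: Mt1 was 14.11 to 14.19 in control lungs and 14.59 to 14.81 in treated lungs (0.54 ± 0.10, adjusted p = 0.00385), and Mt2 rose by 0.87 ± 0.20 (adjusted p = 0.0109, and 0.062 without control array 3). They made up 2 of the 4 higher calls among 21 genes of the NRF2 antioxidant response, which had 1 lower call (23.8% called, beside 14.6% over all genes). With control array 3 set aside, that list had 1 higher call. Of 22 genes of the integrated stress and unfolded protein responses, 2 were higher and 1 was lower (13.6% called). Of 16 cholesterol synthesis genes, 2 were higher and 1 was lower (18.8% called). After leaving out control array 3 the first of these lists had no call and the second only its lower call.

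Airway secretory genes showed rises in mucin and defence genes beside a fall in a club cell gene. Of 20 genes, 4 were higher and 2 lower (30.0% called, beside 14.6% over all genes, median 0.22). Muc5b, the mucin that clears the airways, was 12.95, 13.03 and 12.93 in control lungs and 13.50, 13.90, 13.96, 13.88 and 13.45 in treated lungs (0.77 ± 0.13, adjusted p = 0.00183). In the group of bleomycin with LNA-control the gene was -0.23 from the control lungs (adjusted p = 0.26). Agr2, which folds mucins, was 7.83 to 7.89 against 8.34, 8.94, 9.39, 8.53 and 8.91 (0.97 ± 0.18, adjusted p = 0.00328). Reg3g, a lectin that kills bacteria, was 12.42 to 12.72 against 13.17 to 13.98 (1.06 ± 0.16, adjusted p = 0.00109). Ltf, the iron-binding lactoferrin, was 11.20 to 11.75 against 12.12 to 12.98 (1.04 ± 0.22, adjusted p = 0.00717). Scgb3a2, a secretoglobin of club cells, was 14.05, 13.86 and 14.12 against 13.36, 12.60, 13.15, 12.82 and 12.21 (-1.18 ± 0.24, adjusted p = 0.00664), while Scgb1a1 was not called. The mean of the Scgb3a2 probes gave -0.76. Muc5b and Agr2 stayed called under every alternative tried. The list mean was 12.68 to 12.76 in control lungs and 12.86 to 13.05 in treated lungs. In uninjured PBS lungs with LNA-miR-199a-5p it was 12.85 to 12.91, although no gene of the list was called there against the control arrays.

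In the alveolar epithelium, 3 of 21 genes of type 2 cells, which make surfactant, were higher and none was lower. That is 14.3% called, beside 14.6% over all genes. Once control array 3 was left out, neither this list nor that of type 1 cells had a call. The alarmin Il33 was 11.80, 11.75 and 11.70 in control lungs and 12.00 to 12.46 in treated lungs (0.47 ± 0.10, adjusted p = 0.00737, and 0.054 without control array 3). Among 17 type 1 genes, 4 were lower and 1 was higher (29.4% called), with 1 lower in the fit of the 8 arrays alone. Cldn18, a tight junction protein, was 9.51 to 9.81 against 9.01 to 9.43 (-0.51 ± 0.15, adjusted p = 0.0368), and the anchoring protein Akap5 was 14.22 to 14.48 against 13.66 to 14.18 (-0.42 ± 0.12, adjusted p = 0.0286). Both were called in few of the fits with an array left out. Without control array 2 or 3 the adjusted p of Cldn18 were 0.14 and 0.077 and those of Akap5 0.084 and 0.15. Cldn18 also missed the threshold without control array 1 or treated array 2, 3 or 5 (0.058 to 0.1), and Akap5 without treated array 3, 4 or 5 (0.054 to 0.061). Of 19 genes of injured, transitional epithelium, 4 were higher and 2 lower (31.6% called, median 0.21). There were 2 and 1 without control array 3. Sfn, an adaptor that p53 induces, was 7.85 to 8.15 against 8.75 to 9.65 (1.05 ± 0.22, adjusted p = 0.00711, and 0.053 without control array 3), and squamous epithelium, whose genes were higher on these arrays, makes it as well. Cdkn2b, a cell cycle inhibitor, was 12.30 to 12.41 against 11.59 to 12.03 (-0.55 ± 0.10, adjusted p = 0.00434), with -0.32 as the mean of its probes. Of 21 motile cilia genes, 2 were lower and none was higher (9.52% called, beside 14.6% over all genes). These were Tekt2 (-0.77 ± 0.19, adjusted p = 0.0138), a tubule protein of the ciliary shaft, and Mcidas (-0.87 ± 0.24, adjusted p = 0.0268), which starts the ciliated cell programme. With control array 3 set aside, their adjusted p were 0.059 and 0.14. Tekt2 also missed the threshold without control array 1 (0.067), and Mcidas without control array 2 or treated array 5 (0.078 and 0.059).

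Platelet genes formed the list with the largest share of lower calls. Of 10, 7 were lower (70.0%, beside 6.16% over all genes) and none was higher (median -0.68). Ppbp, a platelet chemokine precursor, was 13.21, 13.14 and 13.17 in control lungs and 12.44, 12.09, 11.98, 11.71 and 12.50 in treated lungs (-1.03 ± 0.14, 2.04-fold lower, adjusted p = 0.000723). Pf4, platelet factor 4, was 14.41, 14.34 and 14.37 against 13.86, 13.73, 13.51, 13.84 and 14.09 (-0.57 ± 0.11, adjusted p = 0.0041). In both genes the 3 control arrays lay within 0.1 of each other and all treated arrays lay below them. Clec1b, the platelet receptor for podoplanin (-0.83 ± 0.12, adjusted p = 0.00104), and Tubb1, the platelet tubulin (-0.71 ± 0.10, adjusted p = 0.000581), fell too, and these 4 genes stayed called under every alternative tried. Gp9, part of the von Willebrand factor receptor, was lower (-0.82 ± 0.18, adjusted p = 0.00972, and 0.053 without control array 3), and Treml1, of platelet granules, was lower on every treated array (10.93 to 11.63 against 11.98 to 12.31) but not called (adjusted p = 0.284). Gp9 and Treml1 were named after their values were seen. For bleomycin with LNA-control Ppbp was -1.64 and Pf4 -1.22 from the shared control arrays, and the treated lungs lay above that group by 0.62 and 0.65 (adjusted p = 0.002 and 0.00014). None of 15 red blood cell genes was called in the treated lungs, with a list mean of 11.07 to 11.17 on control arrays and 11.05 to 11.46 on treated arrays.

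Of the mast cell and basophil proteases measured, Mcpt4, Cpa3 and Cma1 were higher in the treated lungs, and Tpsb2, Tpsab1 and Mcpt8, named after their values were seen, were not called. Mcpt4, a chymase of connective tissue mast cells, was 7.84, 7.73 and 7.31 in control lungs and 8.81, 8.68, 8.69, 9.20 and 9.50 in treated lungs (1.35 ± 0.23, adjusted p = 0.00256). Cpa3, the mast cell carboxypeptidase, was 7.11 to 7.30 against 7.84 to 8.25 (0.84 ± 0.17, adjusted p = 0.00613). Cma1, another chymase, was 5.93 to 6.23 against 6.42 to 6.84 (0.49 ± 0.10, adjusted p = 0.00719, and 0.066 without control array 3). Prg2, a granule protein of eosinophils, was higher too (0.59 ± 0.18, adjusted p = 0.0356). With it, 4 of 15 genes of eosinophils and mast cells were higher (26.7%, beside 8.39% over all genes) and none was lower. Mcpt4 and Cpa3 were the 2 calls left without control array 3. Prg2 lost its call without any 1 control array (adjusted p 0.079 to 0.15) or any of treated arrays 2 to 5 (0.053 to 0.067). In the group of bleomycin with LNA-control Mcpt4 was 0.14 and Cpa3 0.02 from the control lungs, and neither was called. Connective tissue mast cells also reside in muscle, skin and fat, whose transcripts were higher on the same arrays, and the part of these tissues in the result was not tested.

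Of 30 endothelial genes, 1 was higher and 1 was lower (6.67% beside 14.6% over all genes). Kdr, the main VEGF receptor, was 13.74, 13.76 and 13.96 in control lungs and 13.19 to 13.43 in treated lungs (-0.48 ± 0.10, adjusted p = 0.00728), and Sox18, an endothelial transcription factor, was 12.37 to 12.49 against 12.86 to 13.09 (0.57 ± 0.13, adjusted p = 0.0108). After leaving out control array 3 both had an adjusted p of 0.064. Of 19 genes of coagulation and plasmin formation, 3 were higher and none was lower (15.8% called), with 5 higher in the fit of the 8 arrays alone. F7, coagulation factor VII, was 9.23, 9.18 and 9.20 in control lungs and 9.62, 9.83, 9.99, 10.12 and 10.10 in treated lungs (0.72 ± 0.13, adjusted p = 0.00265) and stayed called under every alternative tried. Procr, the receptor of protein C, was 9.23 to 9.38 against 9.66 to 10.03 (0.57 ± 0.11, adjusted p = 0.00599).

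Genes of the circadian clock, whose levels follow the hour of the day, differed in both directions. Of 18 genes, 4 were higher and 1 was lower (27.8% called, beside 14.6% over all genes, median 0.23). Only Per2 and Bhlhe40 were called without control array 3, and 7 genes were higher in the fit of the 8 arrays alone. Per2, a repressor in the clock's loop, was 7.83, 7.97 and 8.14 in control lungs and 9.10, 9.22, 8.87, 9.29 and 9.05 in treated lungs (1.13 ± 0.17, adjusted p = 0.00109). Bhlhe40, a repressor that stress also induces, was 9.81 to 9.88 against 10.51 to 10.96 (0.88 ± 0.12, adjusted p = 0.000579). Both stayed called under every alternative tried. Dbp, an output gene of the clock, was 12.50 to 12.61 against 13.12 to 13.62 (0.85 ± 0.18, adjusted p = 0.00815, and 0.055 without control array 3), and Nr1d1, the nuclear receptor that represses Arntl, was 9.38 to 9.67 against 10.15 to 10.96 (0.99 ± 0.25, adjusted p = 0.0165, and 0.051 and 0.09 without control array 1 or 3). Arntl, the activator of the loop, named after its values were seen, was 10.56 to 10.72 against 9.60 to 10.25 (-0.58 ± 0.16, adjusted p = 0.0244), and without any 1 control array its adjusted p lay between 0.056 and 0.12. The hour of collection is not given in the sources used here.

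Immediate early genes, which react within minutes to handling and stress, were lower for 3 of 20 members and higher for 1 (median -0.17). Egr1 was 11.31, 11.23 and 11.51 in control lungs and 10.55, 10.07, 10.28, 9.82 and 11.09 in treated lungs (-0.99 ± 0.20, adjusted p = 0.00624). Fos was 10.34 to 10.78 against 9.00 to 10.42, with overlap (-0.86 ± 0.25, adjusted p = 0.0305), and the phosphatase Dusp1 was 12.10 to 12.40 against 11.01 to 11.85 (-0.79 ± 0.22, adjusted p = 0.0281). Treated array 4 was lowest and array 5 highest for each of these 3 genes. Jund, a relative of Jun, was higher (0.66 ± 0.18, adjusted p = 0.0225). Once control array 3 was left out, the adjusted p of Egr1, Dusp1, Fos and Jund were 0.051, 0.13, 0.15 and 0.1. Dusp1, Fos and Jund missed the threshold without control array 1 or 2 as well (0.05 to 0.086), Dusp1 and Fos without treated array 4 (0.062 and 0.058), and Fos without treated array 2 (0.054).

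Apart from Saa3, the 12 largest rises were transcripts of skeletal muscle and squamous epithelium, tissues that lie next to the lung and airway. Ckm, the creatine kinase of muscle, was 8.47, 8.00 and 7.20 on control arrays and 9.81, 9.80, 9.79, 10.58 and 9.98 on treated arrays (2.10 ± 0.52, adjusted p = 0.0152). Mybpc2, a myosin-binding protein of fast muscle, was 7.80 to 8.37 against 9.40 to 10.53 (1.83 ± 0.36, adjusted p = 0.00526), and the calcium buffer Pvalb was 7.39 to 7.89 against 8.88 to 9.87 (1.77 ± 0.37, adjusted p = 0.00677). The muscle genes Mybpc1, Actn3, Myl3 and Myoz1 had differences of 1.90 to 2.12. Krt14, the keratin of basal squamous cells, was 8.82, 8.12 and 7.31 against 9.86 to 10.92 (2.13 ± 0.58, adjusted p = 0.0238). Alox12b, a lipoxygenase of the skin barrier (2.13), Sprr1a, a cornified envelope protein (1.87), and Grhl3, a factor of barrier formation (1.78), were higher as well. In each of these 11 genes control array 3 was lowest, and without it only Mybpc2 was still called, the adjusted p of the other 10 lying between 0.053 and 0.21. Actn3, Alox12b, Myoz1 and Sprr1a also missed the threshold without any 1 other control array (0.051 to 0.096), and Krt14, Mybpc1, Myl3 and Grhl3 without control array 2 (0.069 to 0.071). These 8 genes were lost too without treated array 4 (0.053 to 0.088), on which all of them were highest, and Actn3, Alox12b, Myoz1 and Sprr1a without 1 or more of the other treated arrays (0.051 to 0.068).

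The lists for these tissues show the same order of arrays. Skeletal muscle genes averaged 9.76, 9.34 and 8.74 on control arrays and 11.00, 10.93, 10.56, 11.38 and 10.85 on treated arrays. Of 14, 6 were called higher (42.9%, beside 8.39% over all genes) and none lower, with a median of 1.92. Squamous genes averaged 9.66, 9.20 and 8.39 against 10.22 to 10.85, with 5 of 20 called higher and none lower. In the fit of the 8 arrays alone, and also without 3 arrays of the other groups that stood apart, 13 of 14 skeletal muscle genes and 14 of 20 squamous genes were higher. Brown and white fat genes had 10 of 16 called higher (62.5%) and none lower (median 1.15). Adipoq, the hormone adiponectin, was 11.40, 10.95 and 10.46 against 12.26 to 12.69 (1.56 ± 0.32, adjusted p = 0.00696, and 0.061 without control array 3). It was named after its values were seen. The lipase Lipe (0.94 ± 0.17, adjusted p = 0.00281) and the hormone leptin, Lep (0.62 ± 0.12, adjusted p = 0.00473), were higher too, although Lep lay near the low end of the scale at 5.24 to 6.33. Ucp1, the defining gene of brown fat, was 11.37, 10.55 and 5.57 on control arrays and 10.41 to 12.18 on treated arrays (adjusted p = 0.332). The squamous keratin Krt13 was 13.53, 12.99 and 11.38 against 14.74 to 15.73 (adjusted p = 0.267), and the skeletal actin Acta1 was 12.35, 11.81 and 10.81 against 13.39 to 14.59 (adjusted p = 0.0798). Heart muscle genes averaged 10.13 to 10.30 on control arrays and 10.25 to 10.86 on treated arrays, with 6 of 18 higher (33.3%) and 1 lower. With control array 3 set aside, the counts of higher calls were 1 for skeletal muscle, 0 for squamous epithelium, 5 for fat and 0 for heart muscle. Thymocyte genes, at 6.70 to 6.73 against 6.68 to 6.93, had no call. The spread of the other groups enters the fit, and in PBS lungs with the inhibitor array 3 was lower still, at 6.70 for skeletal muscle and 6.64 for squamous genes beside 10.85 and 10.13, and 10.49 and 9.88, on arrays 1 and 2. How much of these transcripts came from tissue taken along with the lung was not tested.

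**Figure D5:**
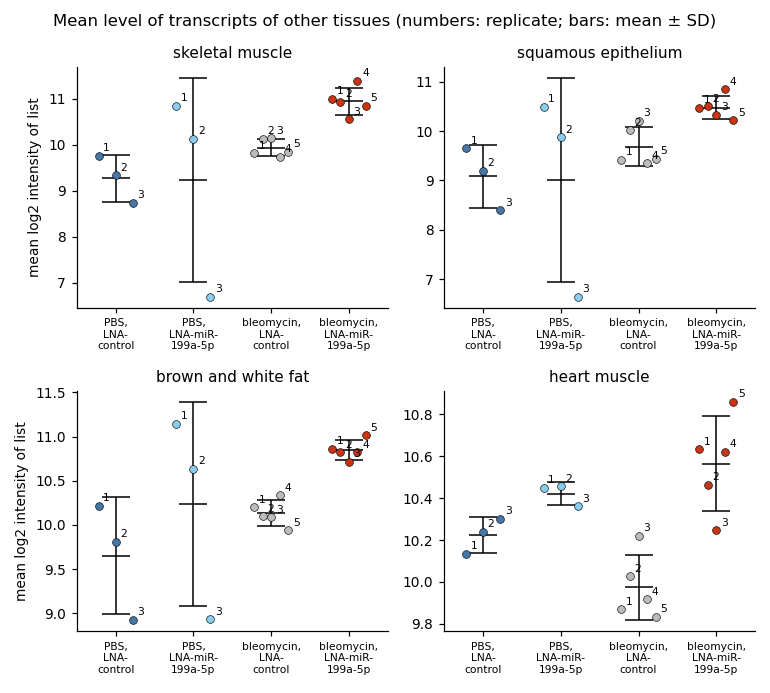
Mean log2 intensity of the genes in 4 lists of other tissues on each array in the 4 groups, with the replicate number beside each point and bars for mean ± SD. For skeletal muscle, squamous epithelium and fat, every array of bleomycin with LNA-miR-199a-5p lies above the 3 arrays of PBS with LNA-control, among which array 3 is lowest.

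Cyp2e1, a cytochrome P450 of liver, airway and fat, was 12.15, 11.82 and 11.26 in control lungs and 12.86 to 13.39 in treated lungs (1.38 ± 0.26, adjusted p = 0.00422) and stayed called under every alternative tried. Cyp1a1, which the aryl hydrocarbon receptor induces, was lower (-0.91 ± 0.29, adjusted p = 0.0495), and it missed the threshold without any 1 control array (0.099 to 0.17) or without treated array 2, 3 or 5 (0.066 to 0.1). These were the 2 calls among 21 genes of drug metabolism (9.52%, beside 14.6% over all genes).

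Genes tied to miR-199a-5p moved in both directions. Of 26 genes of caveolae and reported targets of the microRNA, 5 were higher and 4 lower (19.2% and 15.4%, beside 8.39% and 6.16% over all genes), with a median of -0.05. Cav3 and Gsk3b were the calls left, 1 in each direction, without control array 3, and in the fit of the 8 arrays alone 2 were higher and 2 lower. Cav1, the reported target that forms caveolae, was 10.99, 11.21 and 11.28 in control lungs and 10.88, 10.97, 10.74, 10.98 and 10.59 in treated lungs (-0.33 ± 0.10, adjusted p = 0.0445). Bleomycin with LNA-control placed Cav1 0.58 below the control lungs on the log2 scale, and the treated lungs lay 0.25 above that group (adjusted p = 0.05). The call for Cav1 was lost without control array 2 or 3 (adjusted p = 0.13 and 0.21) or treated array 3 or 5 (0.079 and 0.093), and in all in 12 of 23 alternatives. Gsk3b, a kinase of the WNT and insulin pathways and a reported target, was 12.78, 12.86 and 12.86 in control lungs and 11.84, 12.21, 11.88, 12.25 and 12.27 in treated lungs (-0.74 ± 0.10, 1.67-fold lower, adjusted p = 0.000662). It stayed called under every alternative tried, and the mean of its probes gave -0.47. Cav3, the caveolin of muscle, was 8.63 to 9.13 against 9.56 to 9.97 (0.82 ± 0.15, adjusted p = 0.00373) on arrays with higher levels of muscle genes. The caveolar coat protein Cavin3 rose by 0.39 ± 0.09 (adjusted p = 0.0129, and 0.097 without control array 3), and Wnt2, a WNT ligand of lung fibroblasts, fell by 0.62 (adjusted p = 0.0325). Wnt2 missed the threshold without control array 2 or 3 (0.066 and 0.22) or treated array 2, 3 or 5 (0.053 to 0.07). It was the only call among 16 genes of resident lung fibroblasts (6.25%, beside 14.6% over all genes).

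Among 17 genes that host miR-199a or belong to the microRNA machinery, 1 was higher and 2 were lower (17.6% called, beside 14.6% over all genes). Dnm3os, the antisense RNA that carries the Mir199a-2 hairpin, was 6.04, 6.08 and 6.27 in control lungs and 6.03 to 6.31 in treated lungs (0.03 ± 0.11, adjusted p = 0.869). Dnm3, the gene it overlaps, was 6.84 to 6.93 against 6.37 to 6.68 (-0.33 ± 0.08, adjusted p = 0.0135), and Dnm1, another dynamin, was 10.25 to 10.44 against 10.75 to 11.11 (0.56 ± 0.09, adjusted p = 0.00154). Ago4, an Argonaute that carries microRNAs, was 10.72 to 10.99 against 10.11 to 10.55 (-0.46 ± 0.12, adjusted p = 0.0167), with its other probe on the other side of 0. The mean of probes gave -0.13 for Ago4, which was not called (adjusted p = 0.295), and 0.30 for Dnm1. After leaving out control array 3 Dnm3 and Ago4 missed the threshold (0.078 and 0.11).

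Lymphoid lists had almost no calls. None of 17 T cell genes and none of 17 natural killer and cytotoxic genes was called, and of 19 genes of B cells and plasma cells only Cd37, a tetraspanin of B cells, was (0.67 ± 0.19, adjusted p = 0.0284). Cd37 was 10.67 to 10.79 in control lungs and 10.87 to 11.99 in treated lungs, and it missed the threshold without any 1 control array (0.069 to 0.12) or without treated array 3 or 4 (0.055 and 0.054). Jchain, which joins secreted antibodies, was 11.39, 11.17 and 10.78 against 12.01, 12.53, 13.09, 11.24 and 12.85 and stood just outside the threshold (1.23 ± 0.40, adjusted p = 0.0501). It was called without treated array 1 or 4 (adjusted p = 0.046 and 0.019). In all, 7 of the 52 lists held no called gene: T cells, natural killer cells, thymocytes, red blood cells, cell cycle, DNA replication, and transcripts of thyroid and liver. At an unadjusted p under 0.05 limma gave 3 T cell genes, 2 natural killer genes, no thymocyte gene, 3 red blood cell genes and 2 thyroid and liver genes. Over all 20863 genes, 6299 were under that p. In the lists not yet given, 3 of 18 genes of the interleukin 1 and 6 families were higher and 2 lower (27.8% called, beside 14.6% over all genes). Of 20 CXC chemokines and receptors 2 were higher and 1 was lower (15.0%), of 24 respiratory chain genes 3 were higher (12.5%, with 1 call in the fit of the 8 arrays alone), and of 13 mesothelial genes 1 was higher (7.69%). A lower call among the interleukin genes and a higher call among the CXC genes were left when control array 3 was omitted.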

How the data were processed

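Total RNA of whole lung was hybridised to 1-colour Agilent mouse arrays, 1 sample per array. The deposited values are log2 intensities that the authors had normalized; limma is named in the submitters' processing notes, with no version. No background flags and no scanner files were used here, and the precision is limited by the number of arrays. The table holds 62976 spots. Gene symbols came from the platform annotation for 31465 of them and were updated through RefSeq (GRCm38.p6), where 29050 matched by accession and 2933 symbols changed. For each of 20863 genes the probe with the highest mean over the 16 arrays was kept, a choice that mattered for 6086 genes with several probes.

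limma 3.58.1 in R 4.3.3 (lmFit and eBayes) was run on the 16 arrays together with 1 mean per group, 4 in all, and p-values, two-sided, were adjusted over all genes by Benjamini and Hochberg. Genes with an adjusted p under 0.05 are called. The fit was tested on simulated data with independent noise for each gene. That test cannot speak to signals shared between genes or to an array that stands apart. Named genes were the 12 largest rises and 12 largest falls among called genes that lay above the median level and did not overlap between groups, up to 4 members of each of 52 lists by smallest p, and 16 genes of interest; others are said to have been chosen after their values were seen, as were the lung markers, Isg15, Ucp1, Krt13 and Acta1. The comparison, its members and the gene lists were chosen with earlier results of these data known. List members numbered 1082, of which 1040 were measured. Alternatives were the arrays fitted, probe choice, filters, normalization, array weights, covariates, a replicate block and leaving out each array.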

Additional observations from a re-analysis of the deposited data

Results flagged for a closer look

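In 212 sets of 5 treated arrays (160 genes and 52 list means), 11 had 1 array far from the other 4, with a gap over 0.71 of the range of the 5. Chance alone gives this in about 1 in 20 groups. Treated array 4 held 6 of them. It was high for Alox12b at 10.64 (others 9.72 to 9.88), for Ckm at 10.58 (9.79 to 9.98), for Krt13 at 15.73 (14.74 to 14.89), for Sprr1a at 12.51 (11.49 to 11.60) and for Scgb1a1 at 18.32 (18.10 to 18.12), where 18.32 is the top value of the table. It was low for Arntl at 9.60 (10.06 to 10.25). Treated array 5 was high for the mean of the eosinophil and mast cell list at 8.16 (7.90 to 7.94), of the fibrillar collagen and matrix list at 11.28 (11.16 to 11.18) and of the basement membrane list at 11.50 (11.33 to 11.38). Treated array 2 was high for the caveolae and target list at 11.22 (11.13 to 11.15), and treated array 3 was low for the respiratory chain list at 13.83 (13.89 to 13.91).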

How the results depend on the processing

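Of 3059 values of the 134 called genes named in the text under 23 alternatives, 2498 kept their direction and stayed called, 557 kept their direction and were no longer called, and 4 changed sign. These 4 arose with fat and heart muscle genes as covariates: Actn3 at -0.14, Alox12b at -0.18, Myoz1 at -0.13 and Sprr1a at -0.0545. Of genes not called, Ucp1, Krt13 and Acta1 turned to -3.57, -2.25 and -0.65 with those covariates and to -1.37, -1.43 and -0.06 with the skeletal muscle list, and with the squamous list Ucp1 and Krt13 turned to -0.93 and -0.89. The fat, squamous and skeletal muscle lists stand for the tissues of Ucp1, Krt13 and Acta1. A covariate built from the genes of a tissue takes up their difference, so these signs cannot show a direction. The count of 3037 called genes (1751 higher, 1286 lower) became 4681 (2718, 1963) with array weights, 1615 (908, 707) with RNA integrity as a covariate, 232 (114, 118) with fat and heart genes, 1276 (743, 533) with squamous genes and 851 (470, 381) with skeletal muscle genes as covariates. Over all probes it was 7152 (3134, 4018), from more features tested. Centring each array gave 1024 higher and 2210 lower calls. With an array left out the counts ran from 618 to 3618, from 293 to 2132 higher and from 325 to 1486 lower; 618 was without control array 3, 1521 without control array 2 and 1677 without control array 1. With the replicate number as a block 1209 genes were called (653 higher, 556 lower). Same-numbered treated and control arrays did not deviate together over all genes (correlations -0.03, -0.03 and 0.01). The other groups were not checked in this way. In the control group and in PBS lungs with LNA-miR-199a-5p, array 3 was lowest for skeletal muscle (8.74 and 6.70), squamous (8.39 and 6.64) and fat genes (8.92 and 8.93). Whether same-numbered arrays share more than a number was not tested. The skeletal muscle covariate, the fit without 3 arrays of the other groups and the fit without treated arrays 2 and 3 were chosen after seeing the data. The cause of these changes was not tested. Depth cannot be given for arrays; signal over background was not used here, and values near the low end of the scale are the least certain.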
